A study of Mus musculus with 4 samples.

Results

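Interferon-stimulated and MHC class I genes were described in libraries of sorted ILC2s, the group 2 innate lymphoid cells, which lack antigen receptors and live in tissues such as fat. The genes were chosen by symbol from a list of 53, of which 51 matched 1 of the 19088 genes of the deposited table; Mx1 and Mx2 were not analysed here. The ILC2s were sorted from the epididymal fat of male C57BL/6 mice aged 8 weeks, and each library was made from 2000 to 4000 cells, per the labels. There were 2 WT libraries (genotype R5/+) and 2 KO libraries (R5/+Stk11f/f), so that both groups carried R5 and the KO mice also carried floxed Stk11, the gene of the kinase LKB1. The labels do not explain R5, name the Cre or its promoter, or state whether each library came from a separate animal, so the spread behind each p-value is that between these libraries and may be technical. A mouse line called Red5 carries a reporter and Cre at Il5, and whether it is the R5 of these mice is not given in the sources used here.

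Interferons act on paired receptors, IFNAR1 with IFNAR2 for type I interferons and IFNGR1 with IFNGR2 for interferon-gamma, whose kinases activate STAT proteins. Type I signals form a complex that holds IRF9 and binds the interferon-stimulated response element, and interferon-gamma signals lead to binding at the gamma-activated site. The genes so induced restrict viruses, tune the response itself and raise the display of peptides on MHC class I, which is built from a heavy chain (the H2 genes in the mouse) and beta-2 microglobulin.

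The promoters printed here carry the letters of an interferon-stimulated response element and belong to genes from the highest (B2m) to nearly the lowest (Ifit1) levels in these cells, with Isg15 and Gbp2 in the middle. Each line gives the 150 bases before an annotated transcription start, 5′ to 3′ on the gene's strand, from RefSeq on GRCm38.p6. Capitals mark the letters searched for this element, GAAA, any 2 bases and GAAA again, or their reverse complement. The stretches are chr2:122147537-122147686 (+) for B2m, chr4:156200819-156200968 (-) for Isg15, chr3:142620513-142620662 (+) for Gbp2 and chr7:140955962-140956111 (-) for Ifitm2. For the genes near 0 they are chr19:34640739-34640888 (+) for Ifit1 and chr19:34583379-34583528 (+) for Ifit3.
B2m: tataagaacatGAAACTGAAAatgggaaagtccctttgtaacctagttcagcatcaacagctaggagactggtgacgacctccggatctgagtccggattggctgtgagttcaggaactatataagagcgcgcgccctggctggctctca
Ifitm2: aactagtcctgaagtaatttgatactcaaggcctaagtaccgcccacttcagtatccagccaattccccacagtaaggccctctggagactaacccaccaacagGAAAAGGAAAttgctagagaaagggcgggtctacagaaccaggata
Isg15: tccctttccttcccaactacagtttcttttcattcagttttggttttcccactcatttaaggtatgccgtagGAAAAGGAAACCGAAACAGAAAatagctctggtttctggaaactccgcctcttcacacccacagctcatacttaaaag
Gbp2: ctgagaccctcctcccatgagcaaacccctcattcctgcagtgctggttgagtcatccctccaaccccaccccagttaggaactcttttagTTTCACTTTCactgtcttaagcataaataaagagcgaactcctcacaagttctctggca
Ifit3: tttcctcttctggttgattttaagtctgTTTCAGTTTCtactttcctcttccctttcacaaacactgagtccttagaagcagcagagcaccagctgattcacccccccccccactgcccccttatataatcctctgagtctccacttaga
Ifit1: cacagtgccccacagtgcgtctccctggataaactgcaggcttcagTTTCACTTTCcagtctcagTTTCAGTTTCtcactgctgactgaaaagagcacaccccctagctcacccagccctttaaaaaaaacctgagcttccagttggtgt

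Of the 50 RefSeq promoter windows found for 42 of the genes, 38.0% held the letters of the response element on either strand, against 3.44% of all 32851 windows of the same 300 bases (250 before the start and 50 after it). TTCNNNGAA, the letters of a gamma-activated site, were in 15 of the 50 windows and in 8.30% of all windows. TGACGT, the letters of a CRE-like site described in class I promoters, were in 5 of the 50 and in 7.51% of all. Both strands were searched. In Isg15, 3 matches to the response element lay between 78 and 57 bases before the start, each overlapping the next. Ifit1 held 2 matches, starting 104 and 85 bases before the start. A match is a run of letters and not a binding site, and the genes were listed as interferon targets, so these shares describe the list.

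Levels differed widely among the 19 genes whose window held the response element letters. Their mean over the 4 libraries ran from 0.01 FPKM (fragments per kilobase of transcript, scaled to the mapped fragments of the library) in Ifit1 to 21587 FPKM in B2m, with a median of 9.24 FPKM. The other 23 genes with a window had a median of 36.6 FPKM. Genes with and without the letters were found both under 0.1 FPKM and among the class I chains, as the plot of levels by promoter letters shows.

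**Figure D1:**
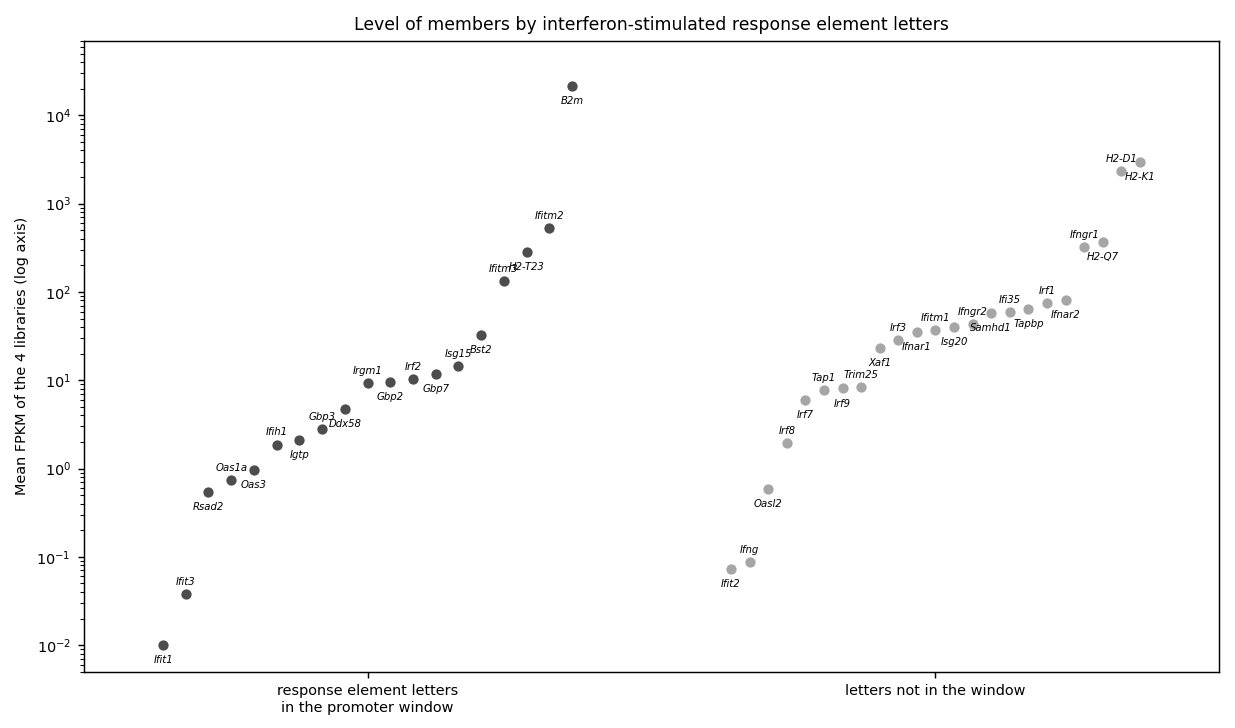
Mean FPKM over the 4 libraries (log axis) of the 42 genes with a RefSeq promoter window, split by whether the window held the response element letters on either strand; each point is 1 gene, in order of level from left to right. Genes with the letters range from Ifit1 at 0.01 FPKM to B2m at 21587 FPKM.

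Before the comparisons, some facts of the libraries bear on every value. The table gives FPKM and no counts, and steps between low values correspond to about 18100000 and 21400000 mapped fragments in WT and 19400000 and 21000000 in KO, a partial match to whole fragments (scores of 0.334 to 0.419, where 1 is a full match). Stk11 stood at 43.1 and 39.1 FPKM in WT, against 31.9 and 16.6 FPKM in KO, with a KO minus WT difference of -0.81 on the log2 scale and an SE of 0.37 (limma, adjusted p = 0.548). The difference was -0.35 without KO replicate 2 and -1.26 without KO replicate 1. Haemoglobin genes took 5.40% and 7.87% of FPKM in WT, against 7.19% and 2.83% in KO. The 9 mast cell or basophil markers were all higher in both KO libraries than in both WT libraries. Their sums were 15940 and 13323 FPKM in WT, against 24943 and 39127 FPKM in KO. Mcpt4 and Tpsb2, 2 of these 9, had an adjusted p under 0.05 (limma, 0.0363 each), where 0.214% of all genes tested did. All 12 ILC2 markers were above 44 FPKM in every library, with sums of 4636 and 4894 FPKM in WT, against 4644 and 3934 FPKM in KO. Of these, Il1rl1, Rora, Thy1 and Arg1 were lower in both KO libraries, Icos was higher in both, and the other 7, Gata3 among them, overlapped. Arg1 stood at 575 and 835 FPKM in WT, against 424 and 294 FPKM in KO, and Icos at 136 and 120 FPKM in WT, against 273 and 280 FPKM in KO (limma, adjusted p = 0.229 and 0.118). Markers of other cells were mixed. Of 11 macrophage or monocyte markers measured, 6 were under 1 FPKM in every library (Csf1r and Fcgr1 listed at 0), and the sums ran from 1.70 to 13.8 FPKM, with Cd68 at 8.66 FPKM in KO replicate 2 and Adgre1 at 4.20 FPKM in WT replicate 2. Of 8 dendritic cell markers, Itgax was listed at 0 throughout, while Xcr1 was at 10.2 to 18.0 FPKM and Zbtb46 at 8.78 to 20.3 FPKM, and the sums ran from 27.0 to 41.3 FPKM in WT and from 19.2 to 26.9 FPKM in KO. Of 7 markers of NK cells or ILC1s, 4 were under 1 FPKM in every library, Ncr1 and Eomes included, and Klrk1 stood at 3.65 and 1.22 FPKM in WT, against 16.4 and 14.5 FPKM in KO (limma, adjusted p = 0.163). The 6 B cell markers summed to 6.08 and 0.19 FPKM in WT, against 20.4 and 10.4 FPKM in KO. Among T cell markers Cd3g was at 189 to 267 FPKM, Cd3e did not exceed 4.91 FPKM and Cd5 was listed at 0. The adipocyte marker Fabp4 was at 139 FPKM in WT replicate 1 and at 0.68 to 21.1 FPKM in the other libraries. The other adipocyte markers, Adipoq, Plin1, Lep, Cidec and Lipe, did not exceed 0.19 FPKM in WT replicate 1. Their highest values elsewhere were 4.19 FPKM (Cidec, WT replicate 2) and 1.75 FPKM (Adipoq, KO replicate 1). In bulk RNA, fewer cells of a type and less RNA per cell cannot be told apart.

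Between WT and KO, interferon-stimulated and class I genes had differences of either sign and none passed the test. Of the 51 genes, 41 had a mean of at least 1 FPKM and were tested, on log2(FPKM + 1) with p-values adjusted over all genes. Of these, 0 passed the threshold (limma, adjusted p under 0.05), where 0.214% of all 9818 genes tested did, and 6 had an unadjusted p under 0.05. These 6 are 14.6% of the genes, against 9.18% of all genes. Ifnar2, Ifngr1, Usp18, Ifitm2 and Gbp2 were higher in KO (5 of 41, where 4.69% of all genes were), and Ifitm3 was lower (1 of 41, where 4.49% were). The KO libraries both lay above WT in 11 of 41 (26.8%, against 18.5% of all genes) and below WT in 5 (12.2%, against 20.6%). The median log2 fold change was 0.04, against -0.01 over all genes, with 21 genes positive and 20 negative. Mast cell and B cell marker sums and Klrk1 were also above WT in both KO libraries, like these 11 genes, and their part in those values was not tested.

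The chains of MHC class I were among the most abundant RNAs of the sorted cells and overlapped between WT and KO. B2m, the invariant light chain (gene 12010, chromosome 2, bases 122147687 to 122153082), stood at 19355 and 27549 FPKM in WT, against 18035 and 21409 FPKM in KO. It ranked 3rd or 4th of all genes in each library. H2-K1, a classical heavy chain (gene 14972, chromosome 17, bases 33996012 to 34000619), stood at 3207 and 2857 FPKM in WT, against 3364 and 2500 FPKM in KO, and ranked between 38 and 63. H2-D1, the other classical heavy chain of this strain (gene 14964, chromosome 17, bases 35263094 to 35267497), stood at 2389 and 2004 FPKM in WT, against 2739 and 2155 FPKM in KO. In all 3 genes the groups overlapped.

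The nonclassical heavy chains were lower than the classical ones. H2-T23 encodes Qa-1, the ligand of the CD94/NKG2A receptor, and stood at 283 and 295 FPKM in WT, against 313 and 242 FPKM in KO. H2-Q7, of the Qa-2 family, stood at 424 and 336 FPKM in WT, against 424 and 284 FPKM in KO. H2-Q6, its neighbour and not on the list of 53, stood at 691 and 559 FPKM in WT, against 701 and 342 FPKM in KO. In each of these, KO replicate 2 was the lowest library. Near-identical H2 genes share reads: of all stretches of 50 bases in the longest coding transcript, 34.9% in H2-Q7, 28.8% in H2-T23, 14.3% in H2-D1 and 8.79% in H2-K1 also occur in transcripts of other genes (GENCODE M21), against 0 in B2m. The split among these heavy chains is uncertain, and these shares do not measure by how much.

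The sum of the 5 class I chains was 25657 and 33040 FPKM in WT, against 24874 and 26590 FPKM in KO, or 29349 ± 5220 and 25732 ± 1213 FPKM (mean ± SD, n = 2 each). As a share of all FPKM, this was 2.60% and 3.09% in WT, against 2.65% and 2.82% in KO. The 4 heavy chain genes together stood at 6302 and 5491 FPKM in WT, against 6839 and 5181 FPKM in KO. The KO libraries lay on either side of the WT libraries in that sum. B2m exceeded it 3.07-fold and 5.02-fold in WT, against 2.64-fold and 4.13-fold in KO. With 2 libraries a group, no exact permutation p can fall under 0.05, so none was computed.

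No class I chain passed the test, and the intervals limit the size of a difference. The log2 fold change (KO minus WT, on the log2(FPKM + 1) scale) of H2-K1 was -0.06, with a 95% interval of -0.45 to 0.33 (limma, adjusted p = 0.951). For H2-D1 it was 0.15 (-0.24 to 0.54), for H2-T23 -0.07 (-0.55 to 0.41), for H2-Q7 -0.12 (-0.67 to 0.43) and for B2m -0.23 (-0.61 to 0.15). Signs near 0 are not directions: H2-K1, H2-T23 and H2-Q7 turned positive when each library was rescaled to 1 common total, which moved the median of all genes by 0.11.

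**Figure D2:**
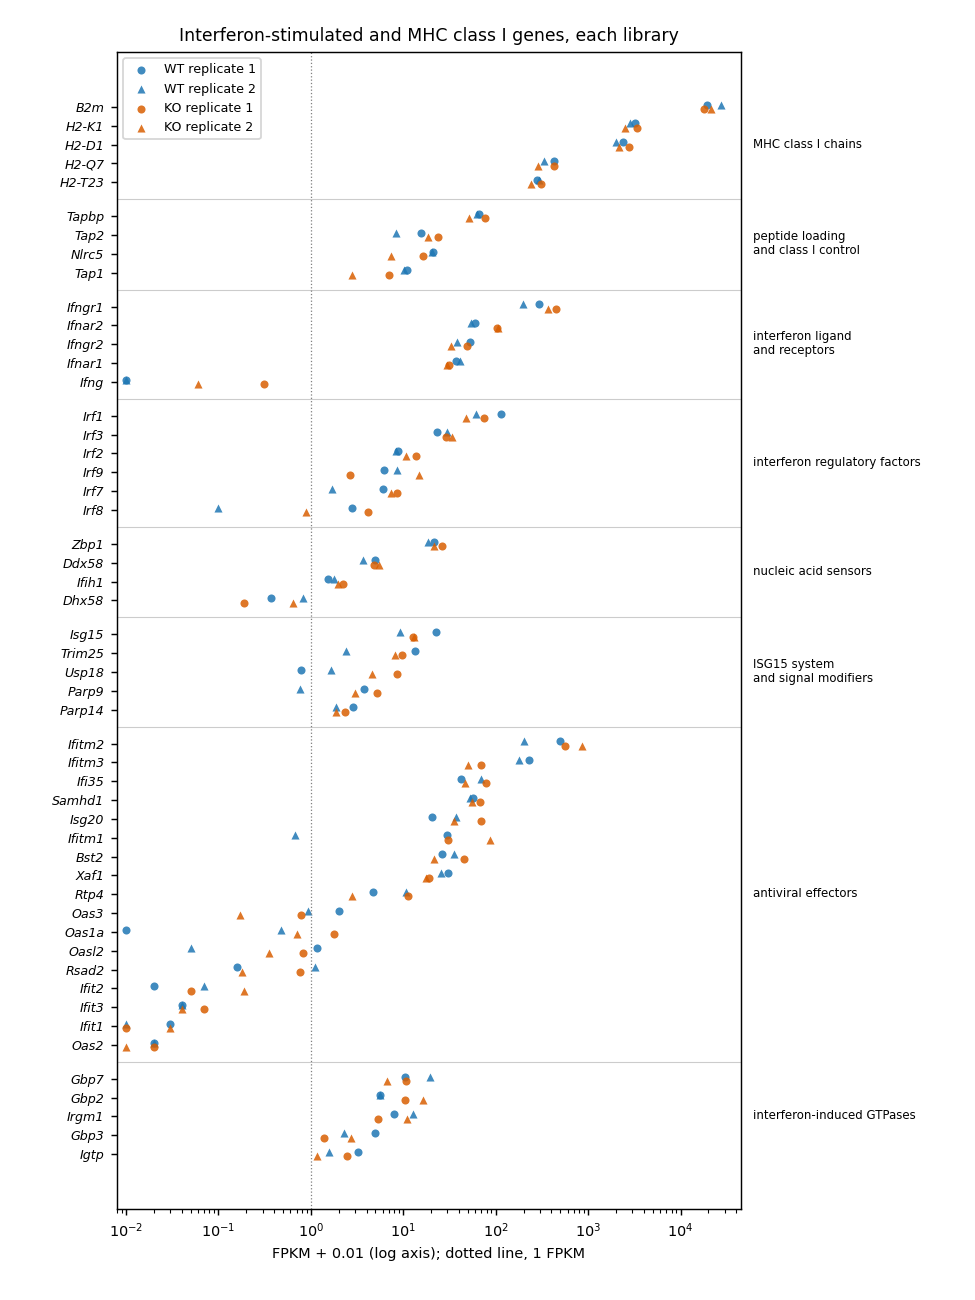
FPKM + 0.01 (log axis) of the 51 genes in each of the 4 libraries, grouped by role; blue is WT, orange is KO, circles are replicate 1 and triangles replicate 2. The class I chains lie at or above 242 FPKM in every library, and Ifit1, Ifit2, Ifit3 and Oas2 at or under 0.18 FPKM.

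Genes that load peptides onto class I were lower than every chain in every library, and their differences had different signs. Tap1 and Tap2 encode the subunits of the peptide transporter of the endoplasmic reticulum and lie on chromosome 17 (34187556 to 34197225 and 34204479 to 34216321), with Psmb8 between them. Tap1 stood at 11.0 and 10.2 FPKM in WT, against 7.08 and 2.80 FPKM in KO. Tap2 stood at 15.4 and 8.34 FPKM in WT, against 23.8 and 18.4 FPKM in KO. The groups did not overlap in either gene, with Tap1 lower and Tap2 higher in KO. Neither passed the test: the log2 fold change was -1.06 (95% interval -2.22 to 0.09; limma, adjusted p = 0.560) for Tap1 and 0.83 (-0.11 to 1.76; adjusted p = 0.571) for Tap2. Tap1 was at -0.52 without KO replicate 2 and -1.61 without KO replicate 1, and Tap2 at 0.42 without WT replicate 2.

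Tapbp, which encodes tapasin, the bridge between the transporter and class I, stood at 65.5 and 63.5 FPKM in WT, against 75.7 and 51.0 FPKM in KO, with the KO libraries on either side of WT. Nlrc5, the transactivator of class I promoters, stood at 20.8 and 20.4 FPKM in WT, against 16.3 and 7.42 FPKM in KO. Both KO libraries were lower, with a log2 fold change of -0.84 (95% interval -1.82 to 0.14; limma, adjusted p = 0.577). For Tap1 and Nlrc5 alike, KO replicate 2 was the lowest library. The value for Nlrc5 was -0.32 without KO replicate 2 and -1.36 without KO replicate 1.

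Transcripts of the interferons measured were at the limit of detection, and Ifna1, Ifna2, Ifna5 and Ifnl2 were not analysed here. Ifng, which encodes interferon-gamma, was listed at 0 in WT, against 0.30 and 0.05 FPKM in KO. By the depth estimate, 1 fragment of Ifng is worth 0.0548 FPKM in WT replicate 1, and the KO values correspond to about 5.87 and 1.06 fragments. Among other interferon genes of the pathway, Ifnb1 was listed at 0.10 and 0.08 FPKM in WT and 0 in KO, Ifna4 at 0.13 FPKM in WT replicate 1 alone, Ifnl3 at 0.08 FPKM in WT replicate 2 alone, and Ifnk at 0 in all. Ifnlr1, a receptor chain for type III interferons, was at 0.02 to 0.05 FPKM in the 4 libraries, while its shared partner Il10rb was at 16.0 to 33.3 FPKM.

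Receptor chains for type I and type II interferons were all expressed, and 1 chain of each pair was higher in both KO libraries. Ifnar2 (gene 15976, chromosome 16, bases 91372783 to 91405589) stood at 59.3 and 54.4 FPKM in WT, against 104 and 105 FPKM in KO. Its partner Ifnar1 (gene 15975, chromosome 16, bases 91485032 to 91510523) stood at 37.2 and 40.9 FPKM in WT, against 31.5 and 29.5 FPKM in KO. The groups did not overlap in either gene, with Ifnar2 above WT and Ifnar1 below it. Ifngr1 (gene 15979, chromosome 10, bases 19591949 to 19610229), the ligand-binding chain for interferon-gamma, stood at 292 and 197 FPKM in WT, against 448 and 368 FPKM in KO. Its partner Ifngr2, on chromosome 16, stood at 52.4 and 38.4 FPKM in WT, against 49.5 and 33.0 FPKM in KO, with overlapping groups.

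The log2 fold change was 0.87 for Ifnar2 (SE 0.25, 95% interval 0.31 to 1.43; limma, unadjusted p = 0.00698, adjusted p = 0.284). For Ifngr1 it was 0.76 (SE 0.24, 0.21 to 1.31; unadjusted p = 0.0128, adjusted p = 0.362, limma), and 0.47 without WT replicate 2. Neither passed over all genes. For Ifnar1 it was -0.34 (-1.02 to 0.33) and for Ifngr2 -0.15 (-0.90 to 0.60). A ratio within a library does not depend on its scaling: Ifnar2 over Ifnar1 was 1.59 and 1.33 in WT, against 3.30 and 3.56 in KO, and Ifngr1 over Ifngr2 was 5.58 and 5.12 in WT, against 9.07 and 11.2 in KO. Both ratios were higher in both KO libraries, with no overlap. For Ifnar2 over Ifnar1 this had to be so, since Ifnar2 was higher and Ifnar1 lower in both KO libraries, and it is no separate result. These ratios were chosen after the values were seen. In Ifnar2, 8.87% of stretches of 50 bases are shared with a read-through transcript, Gm21970.

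**Figure D3:**
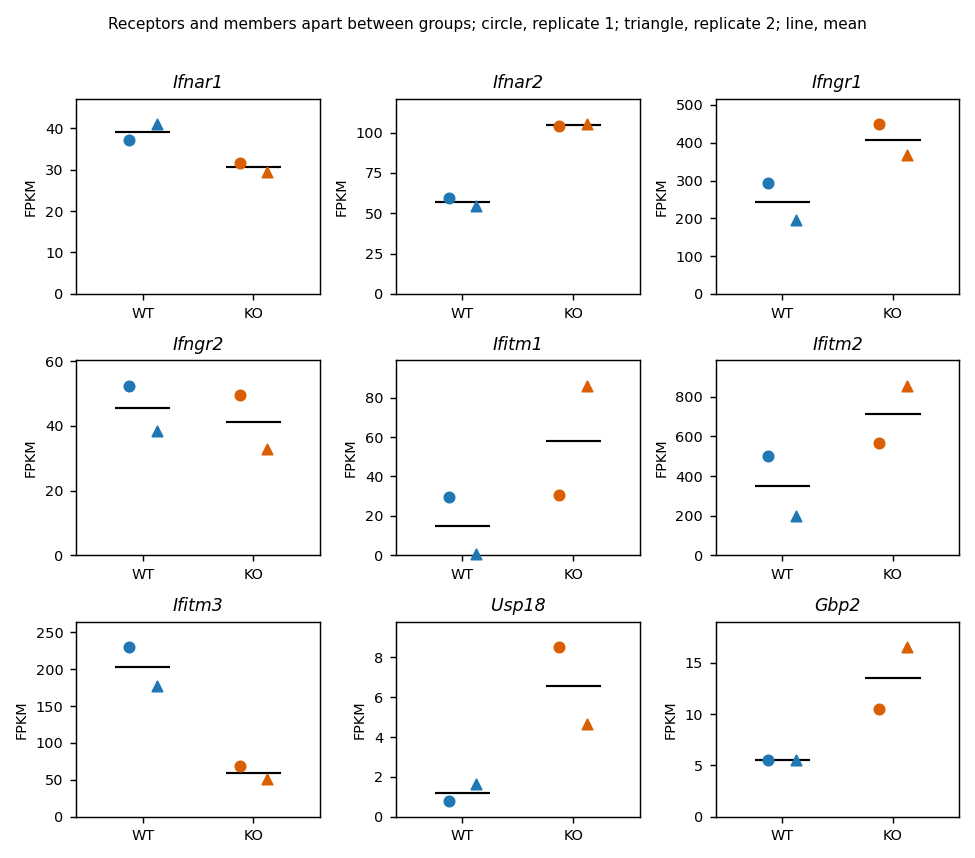
FPKM in each library of the 4 receptor chains, the 3 Ifitm genes, Usp18 and Gbp2 (linear axes from 0); circles are replicate 1, triangles replicate 2 and lines group means (n = 2 each). KO libraries lie above WT in Ifnar2, Ifngr1, Ifitm1, Ifitm2, Usp18 and Gbp2, and below WT in Ifnar1 and Ifitm3.

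The interferon regulatory factors ranged from Irf1, the highest, to Irf8, the lowest. Irf1, an interferon-induced activator of class I genes, stood at 113 and 61.0 FPKM in WT, against 75.3 and 47.6 FPKM in KO. Irf3, the constitutive factor that nucleic acid sensors activate, stood at 23.1 and 29.8 FPKM in WT, against 28.9 and 33.3 FPKM in KO. Irf2, a repressor that competes with Irf1, stood at 8.74 and 8.30 FPKM in WT, against 13.7 and 10.8 FPKM in KO. The groups overlapped in Irf1 and Irf3 and not in Irf2.

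Irf7, the inducible amplifier of type I interferon, stood at 6.09 and 1.68 FPKM in WT, against 8.52 and 7.33 FPKM in KO, above both WT libraries (log2 fold change 1.03, 95% interval -0.30 to 2.36; limma, adjusted p = 0.630). Without WT replicate 2 the value was 0.33, and without WT replicate 1 it was 1.73. Irf9, the DNA-binding part of the type I complex, stood at 6.15 and 8.56 FPKM in WT, against 2.67 and 14.9 FPKM in KO, so that the KO libraries differed 5.57-fold from each other. Irf8, a factor of myeloid and B cells, stood at 2.77 and 0.09 FPKM in WT, against 4.10 and 0.88 FPKM in KO. Replicate 1 was the higher library of each group in Irf8. The B cell marker Cd79a followed the same order within each group, at 1.69 and 0 FPKM in WT, against 11.2 and 6.64 FPKM in KO, and its part in the Irf8 values was not tested. None of the 6 factors passed the test (limma, smallest adjusted p = 0.630).

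Among the listed sensors, those of RNA, Ddx58, Ifih1 and Dhx58, were low, and Zbp1 was higher. Mb21d1 and Tmem173, further genes of sensing, were not analysed here. Zbp1, a sensor of left-handed nucleic acids, stood at 21.3 and 18.6 FPKM in WT, against 26.1 and 21.6 FPKM in KO. Ddx58, which encodes RIG-I, stood at 4.99 and 3.64 FPKM in WT, against 4.76 and 5.43 FPKM in KO, and Ifih1, which encodes MDA5, at 1.52 and 1.78 FPKM in WT, against 2.20 and 1.98 FPKM in KO. Dhx58, which encodes LGP2, was under 1 FPKM in every library. The KO libraries lay above WT in Zbp1 and Ifih1, by less than 0.25 on the log2 scale (0.24 and 0.22), and no sensor passed (limma). Zbp1 was at 0.11 without KO replicate 1 and 0.38 without KO replicate 2, and Ifih1 at 0.15 to 0.29 without 1 library.

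In the ISG15 system, which attaches a ubiquitin-like protein to targets, the modifier and its remover differed in pattern. Isg15 stood at 22.6 and 9.18 FPKM in WT, against 12.7 and 13.1 FPKM in KO, with both KO libraries between the WT libraries. Usp18, the protease that removes ISG15 and also blocks IFNAR2 signalling (gene 24110, chromosome 6, bases 121245906 to 121270917), stood at 0.78 and 1.65 FPKM in WT, against 8.51 and 4.63 FPKM in KO. Both KO libraries lay above WT, with means of 1.22 ± 0.62 and 6.57 ± 2.74 FPKM (SD, n = 2 each). The log2 fold change was 1.75 (SE 0.57, 95% interval 0.46 to 3.04; limma, unadjusted p = 0.0135, adjusted p = 0.368), which did not pass. Its transcript shares 0 stretches of 50 bases with other genes.

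Trim25, an E3 ligase that acts on RIG-I, stood at 13.3 and 2.40 FPKM in WT, against 9.72 and 8.16 FPKM in KO. The WT libraries differed 5.55-fold from each other, more than either KO library did from WT replicate 1. Parp9 and Parp14, ADP-ribosyltransferase family members, were at 0.75 to 5.25 FPKM and 1.84 to 2.86 FPKM. Both overlapped between the groups.

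Antiviral effectors ran from Ifitm2 at a mean of 531 FPKM to Oas2 near 0. Ifit1, Ifit2 and Ifit3, which bind viral RNA or its cap and are among the most strongly induced genes of type I interferon, did not exceed 0.18 FPKM in any library. Ifit1 was at 0.02 and 0 FPKM in WT, against 0 and 0.02 FPKM in KO, and by the depth estimate 0.02 FPKM is about 1 fragment. Oas2, a synthetase of the signal that activates RNase L, was at 0.01 FPKM in 3 libraries and 0 in KO replicate 2. No comparison can be drawn at this depth for these 4 genes. In Ifit3, 51.2% of stretches of 50 bases are shared with its copy Ifit3b.

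Oas1a, Oas3, Oasl2 and Rsad2 were also under a mean of 1 FPKM. Rsad2, which encodes viperin, was at 0.15 and 1.09 FPKM in WT, against 0.76 and 0.17 FPKM in KO, and Oas3 at 1.99 and 0.92 FPKM in WT, against 0.77 and 0.16 FPKM in KO. Oasl2 was at 1.16 and 0.04 FPKM in WT, against 0.81 and 0.34 FPKM in KO, and Oas1a at 0 and 0.47 FPKM in WT, against 1.77 and 0.69 FPKM in KO. In Oas1a both KO libraries lay above WT and in Oas3 both lay below, and Oasl2 and Rsad2 overlapped. With Ifng, Dhx58, Oas2 and the 3 Ifit genes, these are the 10 genes under the filter on low values, and they had no test. None of the 41 that passed did so through 1 group alone, since each had a mean over 1 FPKM in both groups.

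The Ifitm genes encode small membrane proteins that stop viruses from fusing with cells, and they differed from one another. On chromosome 7, Ifitm2 (gene 80876, 140954837 to 140959686), Ifitm1 (gene 68713, 140967429 to 140969827) and Ifitm3 (gene 66141, 141009590 to 141010744) lie within 1 cluster. Ifitm3 stood at 230 and 177 FPKM in WT, against 69.2 and 50.7 FPKM in KO. Both KO libraries were far under both WT libraries, with means of 204 ± 37.1 and 59.9 ± 13.1 FPKM (SD, n = 2 each). Ifitm2 stood at 501 and 201 FPKM in WT, against 567 and 855 FPKM in KO, above WT in both. Ifitm1 stood at 29.4 and 0.66 FPKM in WT, against 30.4 and 86.0 FPKM in KO, so that the WT libraries differed 44.6-fold and KO replicate 1 was level with WT replicate 1.

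Ifitm3 had the smallest p of the 41 genes tested: its log2 fold change was -1.75 (SE 0.27, 95% interval -2.36 to -1.14; limma, unadjusted p = 1.26e-04, adjusted p = 0.0561). It missed the threshold over all genes by a small margin and passed with a filter of 5 FPKM in 2 libraries (limma, adjusted p = 0.0470), with a range of 0.0470 to 0.690 over the 13 alternatives. Ifitm2 had a log2 fold change of 1.13 (SE 0.39, 0.25 to 2.02; limma, unadjusted p = 0.0178, adjusted p = 0.403), and 0.48 without WT replicate 2. Ifitm1 had 2.88 (SE 1.41, -0.71 to 6.47; limma, adjusted p = 0.594), and 0.78 without WT replicate 2.

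The ratio of Ifitm2 to Ifitm3 was 2.18 and 1.13 in WT, against 8.20 and 16.9 in KO, again a ratio chosen after the values were seen. Ifitm2 was higher and Ifitm3 lower in both KO libraries, so the ratio had to be higher in both and is no separate result. Copies limit Ifitm2 more than Ifitm3: 48.5% of its stretches of 50 bases occur in other transcripts, mostly in Gm45717, against 63 of 629 stretches in Ifitm3 and 6.36% in Ifitm1. The promoter window of Ifitm2 held the response element letters starting 46 bases before the start, and that of Ifitm3 held them at bases 2 and 19 after the start. Ifitm1 held none in its window. Stromal marker Dcn was also lower in KO, at 14.7 and 9.24 FPKM in WT, against 0.03 and 1.6 FPKM in KO, and the sum of the 7 stromal or endothelial markers was 21.6 and 18.5 FPKM in WT, against 7.47 and 9.69 FPKM in KO. The difference in the sum was carried by Dcn: Pecam1, the other marker above 1 FPKM, stood at 5.05 and 9.11 FPKM in WT, against 7.25 and 7.98 FPKM in KO. Pdgfra, Col1a1, Col1a2, Cdh5 and Vwf were under 1 FPKM in every library, and the part of such cells in Ifitm3 was not tested.

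The other effectors were at moderate levels. Isg20, an exonuclease, stood at 20.4 and 36.9 FPKM in WT, against 68.7 and 35.2 FPKM in KO, with only KO replicate 1 above the WT libraries. Xaf1, a partner of the apoptosis inhibitor XIAP, stood at 30.2 and 25.8 FPKM in WT, against 18.9 and 17.4 FPKM in KO, lower in both (log2 fold change -0.60, 95% interval -1.35 to 0.15; limma, adjusted p = 0.617). Samhd1, which degrades deoxynucleotides, was at 53.3 to 67.9 FPKM, Bst2 (tetherin, which holds budding virus) at 21.6 to 45.6 FPKM, Ifi35 at 41.9 to 77.7 FPKM and Rtp4 at 2.79 to 11.2 FPKM. All 4 overlapped between the groups.

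Interferon-induced GTPases, which attack the vacuoles of intracellular pathogens, did not exceed 19.5 FPKM. Gbp2 was the 1 of 5 with an unadjusted p under 0.05. It stood at 5.56 FPKM in both WT libraries, against 10.5 and 16.5 FPKM in KO, both above WT. The log2 fold change was 1.11 (SE 0.43, 95% interval 0.12 to 2.10; limma, unadjusted p = 0.0317, adjusted p = 0.490). Its neighbours on chromosome 3 did not follow it. Gbp7 stood at 10.3 and 19.5 FPKM in WT, against 10.6 and 6.62 FPKM in KO, and Gbp3 at 4.88 and 2.25 FPKM in WT, against 1.39 and 2.72 FPKM in KO. Igtp and Irgm1 on chromosome 11 overlapped between the groups, with highest values of 3.26 and 12.7 FPKM.

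**Figure D4:**
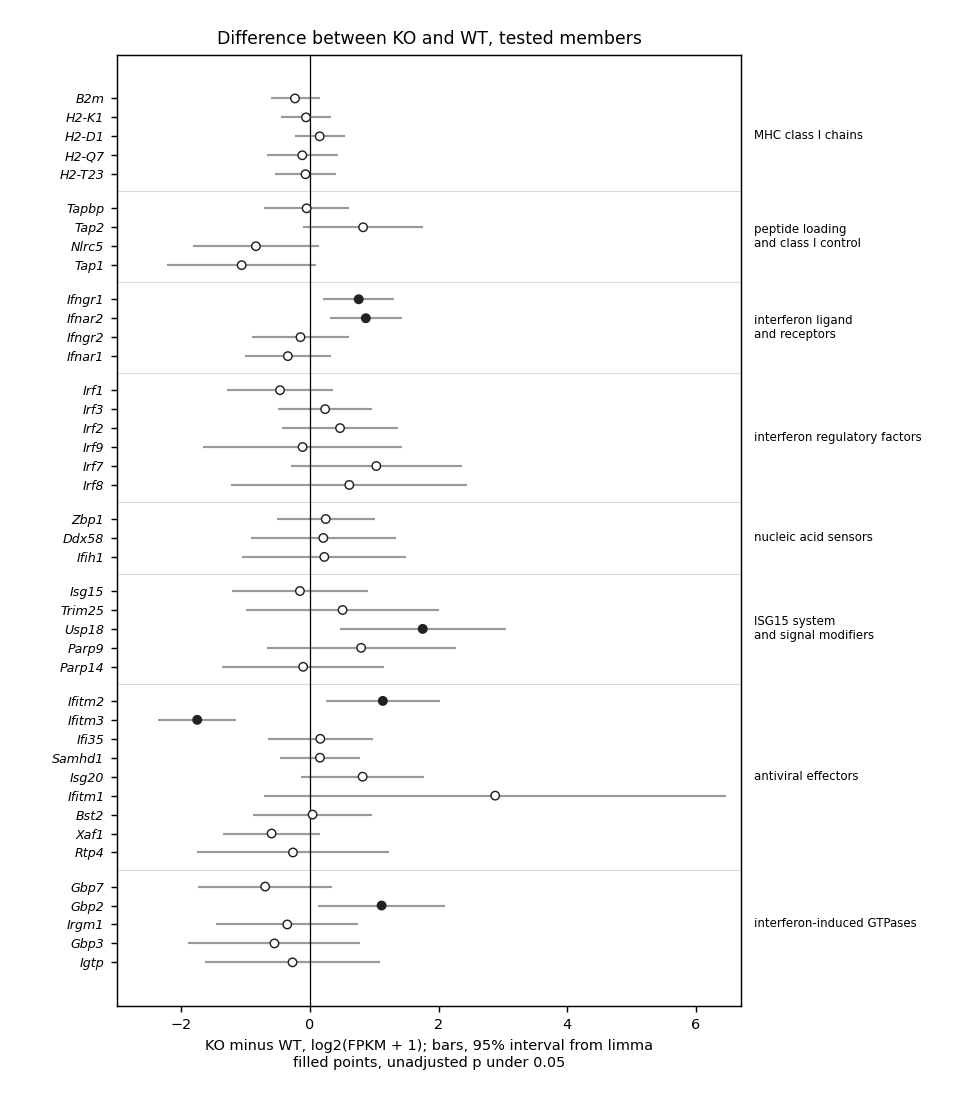
Log2 fold change (KO minus WT, on the log2(FPKM + 1) scale) of the 41 tested genes with its 95% interval from limma, grouped by role; filled points have an unadjusted p under 0.05. The class I chains lie between -0.23 and 0.15, and Ifitm3 is the 1 filled point below 0.

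By median size, replicates of 1 group differed more than the group means did. A mean of 2 libraries varies less than 1 library, so these sizes are not like for like. Over the 41 genes, the median size of the difference on the log2(FPKM + 1) scale was 0.44 between the WT libraries, 0.56 between the KO libraries and 0.35 between the group means. For all genes tested the same values were 0.45, 0.43 and 0.38. KO replicate 1 was above KO replicate 2 in 30 of 41 genes (73.2%, against 54.6% of all genes), and WT replicate 1 above WT replicate 2 in 27 (65.9%, against 56.2%).

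Of 119 further genes of interferon signalling, sensing, response and class I handling, 109 matched the table and 89 were tested. None passed (limma), and 4 had an unadjusted p under 0.05, 4.49% against 9.18% of all genes. Ptpn6, which encodes the phosphatase SHP-1, a brake on JAK kinases, stood at 4.78 and 0.18 FPKM in WT, against 15.4 and 11.7 FPKM in KO (log2 fold change 2.47, SE 0.73; limma, adjusted p = 0.304). Calr, the chaperone calreticulin of class I assembly, stood at 121 and 99.9 FPKM in WT, against 203 and 151 FPKM in KO. Cd274, which encodes the interferon-inducible ligand PD-L1, stood at 31.1 FPKM in both WT libraries, against 10.4 and 21.6 FPKM in KO, and Ifi27l2a at 8.16 and 16.4 FPKM in WT, against 24.2 and 23.03 FPKM in KO. In each of the 4, which were picked by their p, the groups did not overlap, with Cd274 lower in KO and the other genes higher. Of the 89 tested, both KO libraries lay above WT in 23.6% (18.5% of all genes) and below WT in 19.1% (20.6% of all genes).

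Among the signal carriers, Jak2 was the highest, at 344 and 246 FPKM in WT, against 200.2 and 231 FPKM in KO, followed by Ptpn2 (78.9 to 153 FPKM) and Jak1 (86.4 to 101 FPKM). Of further interferon-stimulated genes, Ly6e (1675 to 1968 FPKM), Ly6a (1079 to 1187 FPKM) and Shisa5 (504 to 769 FPKM) were the highest, while Ifi44 and Oasl1 did not exceed 0.07 FPKM and Ifi204 was listed at 0.

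The proteasome parts that shape class I peptides were among the higher genes of the pathway. Psmb8, an interferon-inducible catalytic subunit, stood at 279 and 356 FPKM in WT, against 344 and 188 FPKM in KO, with overlapping groups. Psme2, a subunit of the proteasome activator, stood at 683 and 891 FPKM in WT, against 622 and 617 FPKM in KO, lower in both KO libraries. Psme1, its partner subunit, was at 278 to 360 FPKM. H2-T22 (39.2 to 62.2 FPKM) and Cd1d1 (14.4 to 24.4 FPKM), after H2-Q6, were the highest of the other class I and class I-like genes. Among adaptors and kinases of sensing, Myd88 (14.3 to 21.0 FPKM), Ikbke (8.31 to 17.4 FPKM) and Tbk1 (13.3 to 15.8 FPKM) were the highest.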

How the data were processed

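The deposited table holds FPKM values for 4 libraries, rounded to 2 decimals; Bowtie2, RSEM and DESeq2 with GRCm38.p6 are named in the submitters' processing notes, with no role, version or setting given for any of them. RSEM, if it made the values, divides reads among near-identical genes. The FPKM of WT libraries summed to 986027 and 1069515, and of KO libraries to 939623 and 943240, so a few abundant genes can move the rest.

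Differences between groups were fitted with limma 3.58.1 in R 4.3.3 on log2(FPKM + 1), using trend and robust moderation. The fit held the 9818 genes whose mean over the libraries reached 1 FPKM, p-values were adjusted over all of these by Benjamini-Hochberg, and the threshold was 0.05. Fold changes of low genes are understated on this scale. The code was tested on simulated data.

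Depth was estimated from 170 to 265 low values per library with 200 nt subtracted from GENCODE M21 transcript lengths. Promoters came from RefSeq (GRCm38.p6), and 45 of the genes' 50 windows were checked to run into a transcript in the same orientation. Coordinates are 1-based from RefSeq; 19034 of 19088 identifiers matched.

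The genes, lists, motifs and rule for named genes were chosen with earlier results of these data known. The rule gives library values for class I and loading genes, receptors, Ifng, regulatory factors, genes at an unadjusted p under 0.05, genes differing 4-fold within a group at 5 FPKM or more, and the highest of each role. Others, and H2-Q6 beside its copy, were named after their values were seen. In other pathway lists it takes the 3 highest and those at an unadjusted p under 0.05. Alternatives changed the pseudocount, filter, scaling, moderation, replicate block and libraries.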

Additional observations from a re-analysis of the deposited data

How the results depend on the processing

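Of 41 tested genes, 24 kept their direction in every alternative. The count over all genes, 21 as reported, was 0 under the replicate block, under quantile normalization, with all genes kept, with 0.1 as pseudocount, and without any 1 library (0 to 0). It was 1 with median-ratio scaling and 11 with moderation not robust. The count of the interferon and class I genes was 1 with a filter of 5 FPKM in 2 libraries (Ifitm3) and 0 in the other 12 alternatives. The labels do not tie replicate numbers to a pairing, and same-numbered libraries' deviations correlated at 0.03. Rescaled to 1 common total, the log2 fold changes of H2-K1, H2-T23, H2-Q7 and Tapbp were 0.064, 0.055, 0.0054 and 0.071, and scaled without the 20 highest genes those of H2-K1, H2-T23 and Tapbp were 0.039, 0.031 and 0.047; quantile normalization gave 0.29 for H2-K1. The causes were not tested. Leaving out 1 library turned the sign in 17 genes that had not passed, with these ranges of the log2 fold change: H2-K1 -0.28 to 0.15, H2-D1 -0.022 to 0.32, H2-T23 -0.25 to 0.11, H2-Q7 -0.41 to 0.17, B2m -0.49 to 0.022, Tapbp -0.33 to 0.23, Ifngr2 -0.43 to 0.14, Irf8 -0.28 to 1.51, Irf9 -1.17 to 0.94, Isg15 -0.76 to 0.45, Trim25 -0.53 to 1.54, Parp14 -0.33 to 0.12, Ifi35 -0.21 to 0.53, Rtp4 -1.10 to 0.58, Bst2 -0.48 to 0.56, Igtp -0.64 to 0.10 and Irgm1 -0.81 to 0.10. The summed class I chains gave -0.18 (log2, KO minus WT), and -0.36 to 0.0034 without 1 library. A shorter response element, GAAANNGAA, was in 40.0% of the genes' windows. At this depth, values near 0.02 FPKM rest on about 1 fragment.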
